A study of Mus musculus with 10 samples.

Results

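The cytosolic sulfotransferases Sult1a1, Sult1b1, Sult1c2, Sult1d1, Sult1e1, Sult2a8 and Sult5a1 and the sulfate donor synthase Papss2 were followed through the liver of Gnmt knockout mice, from 11 weeks of age to hepatocellular carcinoma (HCC). They were chosen by symbol: all 12 probe sets annotated to these 8 genes were found, and each gene was read from its probe set with the highest mean over the 10 arrays. All 8 passed the filter on low signals, of 11032 genes that passed among 18193 measured. Gnmt encodes glycine N-methyltransferase, a liver enzyme that uses up S-adenosylmethionine. Mice were of a 129/B6 background. The 11-week groups were wild-type and Gnmt knockout, each with 1 female and 1 male array, and each array held RNA mixed from 3 mice. All aged tissue was Gnmt knockout: dysplastic nodule and adjacent liver of a female of 21 months, HCC and adjacent liver of a male of 18 months, and HCC and adjacent liver of a female of 14 months. Lesion and adjacent liver were paired by their shared sex and age, since the labels give no mouse numbers, and no aged wild-type liver was analysed here. Arrays are the replicates, with no repeat array of the same genotype and sex at 11 weeks. The p-values therefore rest on how differences varied between sexes, genotypes or mice, and largely on spread shared across genes.

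Cytosolic sulfotransferases move a sulfonate group from the donor PAPS to hydroxyl or amino groups of hormones, bile acids, drugs and other small molecules, which makes them more water soluble and often inactive. PAPS is made from ATP and inorganic sulfate by the Papss enzymes. Sult1e1 is the estrogen sulfotransferase, which has high affinity for estradiol. Several genes of the family are sex-biased in mouse liver and respond to nuclear receptors.

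Values are signals on a linear scale, with each array scaled by the authors to a common trimmed mean. Differences are in log2(signal + 16.8), where 16.8 is the 20th percentile of all values, and are given ± the standard error of a limma fit. A gene was called at a Benjamini-Hochberg adjusted p below 0.05 over the 11032 genes. The signal of Gnmt was 59473 in wild-type females and 52140 in wild-type males, against 245 in knockout females and 190 in knockout males, a fall of 7.90 ± 0.21 (limma, adjusted p = 2.1e-05). It lay between 11.7 and 329 in the 6 aged tissues, so every array matched its genotype label. The 8 measured hepatocyte markers had a summed signal of 499258 to 553789 in wild-type pools, 448599 to 506835 in knockout pools, 464593 to 580548 in adjacent liver, 373422 in the nodule and 380542 to 612727 in HCC. The ratio of the spiked control BioC to BioB was 2.62 to 3.16 on the 4 young arrays and 0.920 to 1.08 on the 6 aged ones, so age and whatever set this ratio cannot be told apart. In bulk tissue, fewer cells of a type and less RNA per cell cannot be told apart either.

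The windows around the start sites of Sult1e1, of its chromosome neighbour Sult1d1 and of Sult2a8 are printed because the first and the last had the largest differences of the 8 genes, in opposite directions, while Sult1d1 lies beside Sult1e1. Each runs from 250 bases before to 50 after the start, 5′ to 3′ on the minus strand, in GRCm38.p6 from RefSeq. Sult1e1 lies at chr5:87591562-87591861 and Sult1d1 at chr5:87568957-87569256. Sult2a8 has a first window at chr7:14438502-14438801 and a second at chr7:14446538-14446837. Capitals mark matches on either strand to any of 4 motifs. The half-site bound by nuclear receptors was searched as AGGTCA. Its extended form with 1 more base, which always overlaps the half-site, was searched as AAGGTCA. The STAT element was searched as TTCNNNGAA and the TATA box of core promoters as TATAAA.
Sult1e1: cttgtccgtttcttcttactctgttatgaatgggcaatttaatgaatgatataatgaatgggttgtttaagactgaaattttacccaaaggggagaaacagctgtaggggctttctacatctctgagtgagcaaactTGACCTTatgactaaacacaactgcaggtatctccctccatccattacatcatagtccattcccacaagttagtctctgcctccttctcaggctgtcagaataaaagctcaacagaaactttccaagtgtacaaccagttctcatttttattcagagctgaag
Sult1d1: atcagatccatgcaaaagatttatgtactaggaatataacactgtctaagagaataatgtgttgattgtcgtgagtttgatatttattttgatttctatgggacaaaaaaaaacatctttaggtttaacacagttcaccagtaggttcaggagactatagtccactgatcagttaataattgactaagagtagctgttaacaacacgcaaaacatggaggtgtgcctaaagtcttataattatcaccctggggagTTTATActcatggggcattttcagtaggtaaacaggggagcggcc
Sult2a8, first window: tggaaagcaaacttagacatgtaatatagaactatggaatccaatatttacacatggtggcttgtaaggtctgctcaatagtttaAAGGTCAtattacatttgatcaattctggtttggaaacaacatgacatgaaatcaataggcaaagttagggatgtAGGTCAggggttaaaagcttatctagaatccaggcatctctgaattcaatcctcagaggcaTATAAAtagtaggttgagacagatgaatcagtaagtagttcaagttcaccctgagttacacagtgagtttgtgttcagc
Sult2a8, second window: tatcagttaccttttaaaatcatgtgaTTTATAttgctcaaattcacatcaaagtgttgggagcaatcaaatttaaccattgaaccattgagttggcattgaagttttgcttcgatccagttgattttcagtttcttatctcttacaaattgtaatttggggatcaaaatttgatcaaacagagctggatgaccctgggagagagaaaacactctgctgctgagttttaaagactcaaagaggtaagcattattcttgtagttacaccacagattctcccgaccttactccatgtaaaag
The extended half-site occurred, read on the other strand, from base 138 of the Sult1e1 window, upstream of the start, and it occurred in the first Sult2a8 window. It was in 2 of the 11 windows of the 8 genes and in 4.7% of the 32851 windows of the table. AGGTCA was in 4 of the 11 windows, with Papss2 and Sult1b1 added to the same 2 genes, and in 16.3% of all windows. TATAAA was in 3 of the 11 windows, from Sult1d1 and Sult2a8, and in 13.6% of all windows. In the first Sult2a8 window it stood as written, at -29 from the start. In Sult1d1 it was read on the other strand at 5, downstream of the start. The second Sult2a8 window had it on the other strand at -223. TTCNNNGAA was in 0 of the 11 windows of the 8 genes and in 8.3% of all. Most genes have 1 window but some, like Sult2a8, have more, and these matches are a description of letters only.

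**Figure D1:**
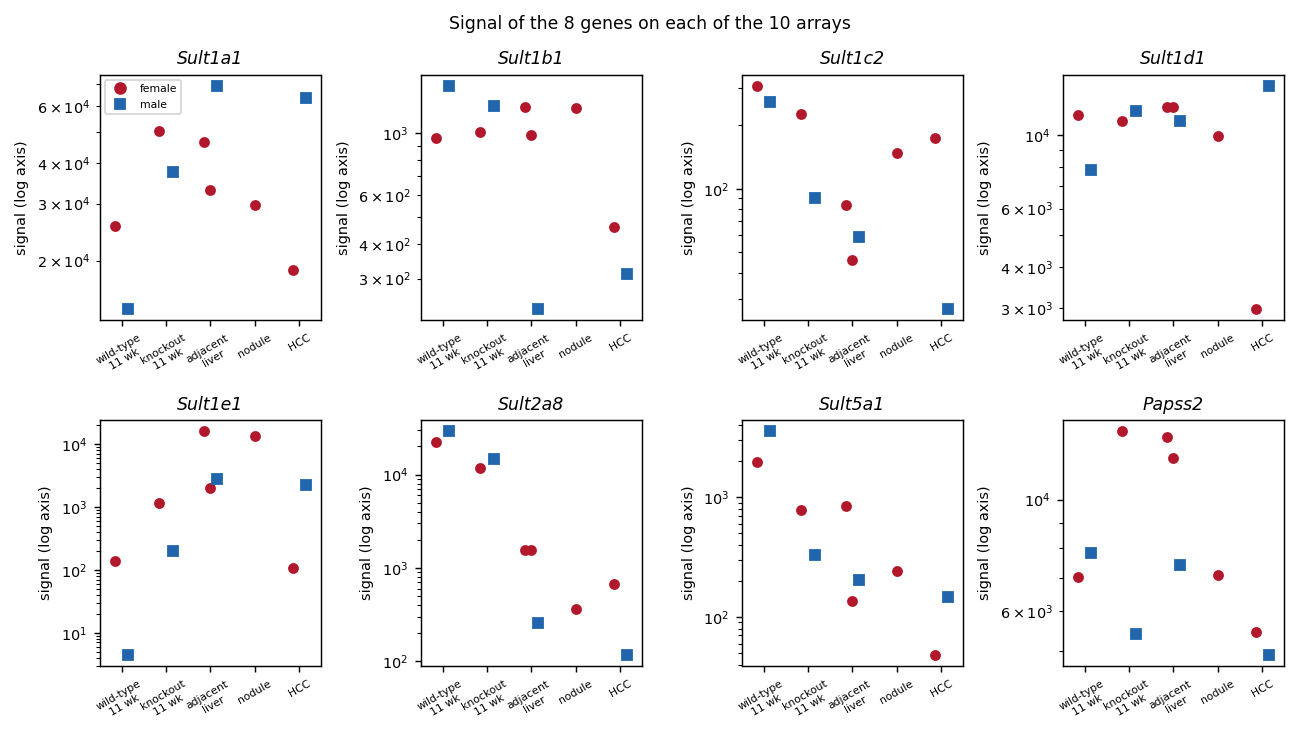
Signal of each of the 8 genes (vertical axis, log scale, one scale per gene) on the 10 arrays, by group, with circles for females and squares for males. Sult1e1 spans from 4.5 in the wild-type male pool to 15745 in nodule-adjacent liver, while Sult2a8 is highest in the 2 wild-type pools and lowest, at 119, in the male HCC.

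At 11 weeks, loss of Gnmt went with higher signals of Sult1e1 and Sult1a1. Of the 8 genes, 2 were called higher in knockout than in wild-type liver and 0 lower, where 1.45% of all genes were called (160, 78 higher and 82 lower). The median difference of the 8 was 0.06, beside -0.05 over all genes. Sult2a8 and Sult5a1 were lower in both sexes and did not pass the test. How many of all genes had groups that did not overlap was not counted. Where such an order is given, below or in a figure, it therefore has no background beside it.

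Sult1e1 had a signal of 138 in wild-type females and 4.5 in wild-type males, against 1144 in knockout females and 197 in knockout males. Both knockout pools were above both wild-type pools, and within each genotype the female was above the male. The difference was 3.12 ± 0.38 (limma, adjusted p = 0.0189), 8.69-fold on the log2 scale used, higher in 2 of 2 sexes, and 17th in size of all 11032 genes. The wild-type male signal lies below the added constant, which sets the size in part: with the constant halved the difference was 3.49, and doubled it was 2.69. The call was lost without the intensity trend (adjusted p = 0.173), without the sex term (0.274), with all 10 arrays in one model (0.474), and when any single pool was left out in that wider model. The differences were then 1.64 without the wild-type male pool, 1.91 without the knockout female, 4.33 without the knockout male and 4.60 without the wild-type female, with adjusted p from 0.545 to 0.879.

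Sult1a1, the main phenol sulfotransferase, had a signal of 25556 in wild-type females and 14199 in wild-type males, against 50105 and 37574 in the knockout. The knockout pools were both above the wild-type pools, with females above males in each genotype. The difference was 1.19 ± 0.18 (limma, adjusted p = 0.0401), 2.28-fold. Choosing the probe set and filtering by plain signals, where 88 genes were called, ended that call (adjusted p = 0.0503), as did no filter (0.0870) and the mean of all probe sets (0.0690). Sult1a1 has no second probe set, so its difference stayed at 1.19 in each of these settings. What changed was which other genes, or which of their probe sets, entered the fit. The call also did not pass without the trend, without the sex term or with all arrays in one model. On leaving out 1 pool in that last model, the difference ranged from 0.40 without the wild-type male to 1.98 without the wild-type female.

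Sult2a8, a liver enzyme of the hydroxysteroid and bile acid sulfotransferase family, had signals of 22390 and 28914 in the wild-type female and male pools. In the knockout they were 11833 and 14582, both below the wild-type pools. The difference of -0.95 ± 0.17 missed the threshold (limma, adjusted p = 0.0529). It passed under quantile normalization (adjusted p = 0.0065) and where the probe set was picked by plain signals and the filter kept on log2 values (adjusted p = 0.0495). Sult2a8 has no second probe set, so in the latter setting its difference was still -0.95. By sex the difference was -0.92 in females and -0.99 in males. Pools were left out 1 at a time in the model over all arrays, whose sex term also draws on the aged tissues. There the female minus male term was 1.61 to 1.63, against -0.33 in the young pools alone. The genotype difference was then 0.04 without the wild-type male and 0.00019 without the knockout female. It was -1.91 without the knockout male and -1.95 without the wild-type female.

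Sult5a1, an orphan member of the family, had signals of 1983 and 3534 in wild-type females and males. In the knockout they were 786 and 328, below both wild-type pools, and the order of the sexes was opposite. The difference was -2.34 ± 0.44 (limma, adjusted p = 0.0580), with an adjusted p of 0.0046 under quantile normalization and 0.0466 with arrays centred on the 75th percentile. On leaving out 1 pool, in the model over all arrays, it was -1.55 without the knockout male and -1.80 without the wild-type male. It was -2.88 without the wild-type female and -3.13 without the knockout female. Sult1c2, whose relatives act on phenols and some hydroxylamines, had low signals of 309 and 258 in wild-type pools, females first, against 226 and 90.1 in knockout pools, with a difference of -0.89 ± 0.36 (adjusted p = 0.242).

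The other 3 genes had values that differed little or in opposite ways. Sult1b1, which sulfonates thyroid hormones, had signals of 963 and 1485 in wild-type pools, females first, against 1008 and 1250 in knockout pools, so the males were above the females in both genotypes. Sult1d1, a sulfotransferase of catecholamines, had 11503 and 7827 in wild-type pools against 11064 and 11801 in knockout pools, with 3 of the 4 pools close together. Papss2 had 7029 and 7828 in the wild-type against 13653 in knockout females and 5414 in knockout males, so the knockout pools lay on either side of the wild-type. Differences were -0.09 ± 0.23, 0.27 ± 0.22 and 0.21 ± 0.34 in that order, with limma adjusted p of 0.865, 0.552 and 0.777.

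Markers of other cells differed between the same pools. The summed signal of the 6 endothelial markers, 5 of which passed the filter, was 7093 to 9628 in wild-type and 3658 to 3792 in knockout pools, none of the 6 was at 0, and Stab2 of sinusoidal endothelium was called lower. The 6 Kupffer cell markers summed to 13227 to 20140 and 10655 to 12110. The clock genes Arntl (912) and Dbp (191) set the wild-type female pool apart from the other 3 pools (Arntl 22.2 to 85.2, Dbp 8414 to 11097). The part of these differences in the results above was not tested.

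**Figure D2:**
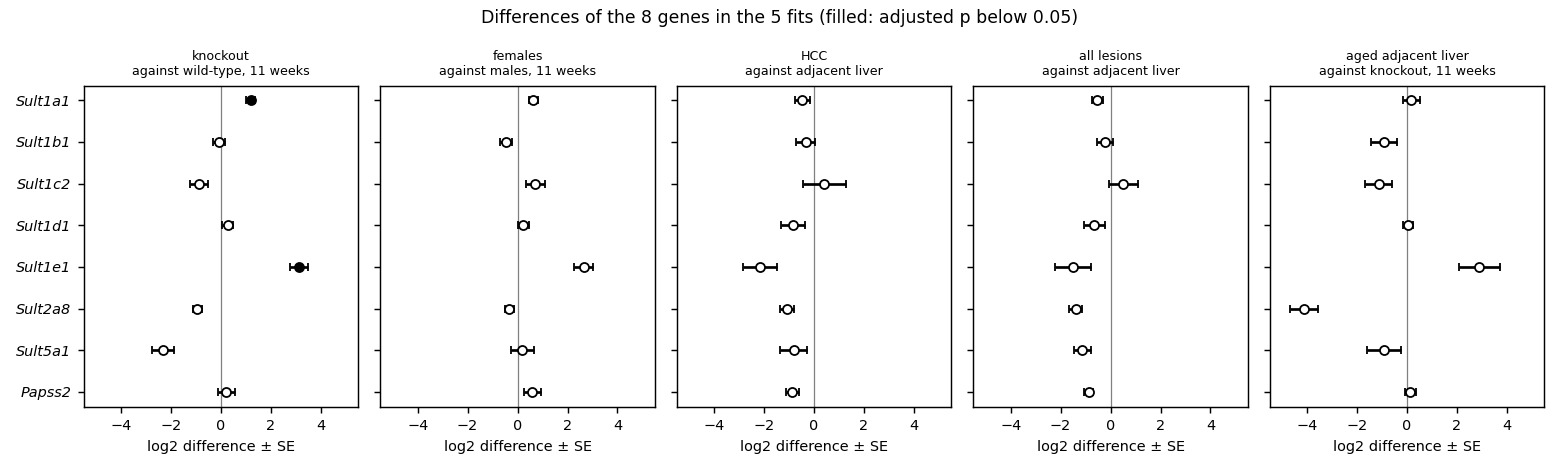
Log2 difference (horizontal axis, in log2(signal + 16.8)) of the 8 genes in the 5 limma fits, with bars for the standard error and filled points for an adjusted p below 0.05. Only Sult1a1 and Sult1e1 in knockout against wild-type are filled, and the point farthest from 0 is Sult2a8 in aged adjacent liver, at -4.13.

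In the comparison of females with males among the 4 young pools, 0 of the 8 genes were called, where 0.272% of all genes were (30 genes), and 1016 genes had an unadjusted p below 0.05. Sult1e1 had the largest of the 8 differences, 2.65 ± 0.38 higher in females (limma, adjusted p = 0.0664), by 2.86 in the wild-type and 2.44 in the knockout. Quantile normalization brought it past the threshold (2.46, adjusted p = 0.0176). With all 10 arrays in one model, which adds the aged tissues to the sex term, it was 0.58 (adjusted p = 0.835), and on leaving out 1 pool in that model it lay between -0.10 and 0.02. Sult1a1 was 0.63 ± 0.18 higher in females (adjusted p = 0.392), Sult1c2 0.72 ± 0.36 (0.594), and Sult1b1 was lower in females by -0.46 ± 0.23 (0.589). The other 4 lay between -0.33 and 0.59.

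Among aged tissues, Sult1e1 was highest in the nodule and its surroundings. Its signal was 15745 in nodule-adjacent liver, 13452 in the nodule, 2735 in male and 2022 in female HCC-adjacent liver, 2232 in the male HCC and 107 in the female HCC. All 3 adjacent livers were above both young knockout pools, and the female HCC was below both. Against the young knockout the difference of adjacent liver was 2.89 ± 0.82 (limma, adjusted p = 0.386), the 16th largest in size, and higher in 3 of 3 livers. By mouse it was 3.76 for the nodule mouse and 3.69 for the male, but 0.81 for the female HCC mouse, each against the young pool of its sex. In order of level, both wild-type pools were below both young knockout pools, which were below the 3 adjacent livers, and the nodule lay inside the range of adjacent liver. The 2 HCC spanned this order, with the female one below the female wild-type pool and the male one within the range of adjacent liver.

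Sult2a8 was low in all aged tissue. Its signal was 1544 in nodule-adjacent liver, 1541 in female and 256 in male HCC-adjacent liver, 364 in the nodule, 680 in the female HCC and 119 in the male HCC. Every aged tissue lay below every 11-week pool, the lowest of which was 11833. The difference between adjacent liver and young knockout was -4.13 ± 0.58, lower in 3 of 3 livers and the largest of 11032 in size, though with an adjusted p of 0.292 in limma. By mouse, each against the young pool of its sex, it was -2.92 for the nodule mouse and -2.93 for the female HCC mouse, but -5.74 for the male. Without the male adjacent liver, or without the knockout male pool, the fitted difference was -2.93 (adjusted p = 0.0571 and 0.147).

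In this comparison of adjacent liver with young knockout, 0 of the 8 genes were called, as were 0% of all genes, while 1355 had an unadjusted p below 0.05. The count rests on single arrays. Without the knockout female pool 441 genes were called, among them Sult2a8 (-5.74, adjusted p = 0.00095) and Sult1b1 (-2.34, adjusted p = 0.0279). That fit sets the male adjacent liver against the male knockout pool, with its spread taken from the 2 female adjacent livers and the lone male arrays assumed to vary like them. Without the nodule-adjacent liver 110 genes were called and without the female HCC-adjacent liver 9, each time with Sult2a8 (-4.34 and -4.33) and Sult1e1 (2.25 and 3.73) among them.

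The other 6 genes shared no direction with age. Sult1a1 had a signal of 46454 in nodule-adjacent liver and of 69298 and 32911 in male and female HCC-adjacent liver, on both sides of the young knockout. Sult1b1 was 1240 and 989 in the 2 female adjacent livers, close to the young pools, but 234 in the male. Sult1c2 was 83.9, 58.8 and 45.8 in the nodule-adjacent, male and female HCC-adjacent livers, below both young knockout pools (difference -1.14 ± 0.54, adjusted p = 0.449).

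Sult5a1 was 848 in nodule-adjacent liver, above both young knockout pools, and 203 and 136 in male and female HCC-adjacent liver, below both. Sult1d1 stayed between 11033 and 12152 in the 3 adjacent livers, inside or just around the 11064 to 11801 of the young knockout. Papss2 was 13297 and 12093 in the female adjacent livers and 7411 in the male, the same order of the sexes as in the young knockout. The neutrophil markers, 4 of 5 measured and none at 0, summed to 978 to 14934 in adjacent liver against 381 to 1151 in young knockout. The male HCC mouse stood apart here: its adjacent liver and HCC had S100a8 signals of 10076 and 8788, against 293 to 700 in the other 4 aged tissues. S100a9 (3417 and 4581) and Ngp (1238 and 1466) were also higher there than in those 4. Csf3r went both ways, at 203 in the adjacent liver, the lowest aged value, and 353 in the HCC, the highest. Dbp signals in the adjacent liver and HCC of this male were 214 and 42.2, against 2390 to 7798 in the other 4. The part of these differences in the values of Sult2a8 and Sult1b1 in this mouse was not tested.

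Within pairs, most of the 8 genes were lower in the lesion than beside it. Of the 8, 0 were called in HCC against adjacent liver (2 pairs), where 0.0816% of all genes were called (9 genes) and 844 had an unadjusted p below 0.05. Over all 3 lesions 0 of 8 were called, where 0.00906% of all genes were called (1 gene) and 1096 had an unadjusted p below 0.05. The median difference of the 8 was -0.83 in HCC and -0.76 in all lesions, beside -0.01 and 0.00 over all genes, and 7 of the 8 were negative in each. Of the 7, 5 were lower in every pair: Sult1a1, Sult1e1, Sult2a8, Sult5a1 and Papss2. The share of all genes lower in every pair was not counted, so this count has no background beside it. Of the 8 hepatocyte markers, 7 were negative over all lesions (median -0.29) and 4 in HCC (median -0.06), with 0 called, and their part was not tested.

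Sult2a8 was lower in each lesion, at 364 against 1544 in the nodule, 119 against 256 in the male HCC and 680 against 1541 in the female HCC. The difference was -1.40 ± 0.26 over 3 pairs (limma, adjusted p = 0.209) and -1.09 ± 0.30 over the HCC pairs (adjusted p = 0.315). Without the male pair 177 genes were called, Sult2a8 among them (-1.60, adjusted p = 0.0295). Papss2 was 7092 against 13297 in the nodule, 4927 against 7411 in the male HCC and 5457 against 12093 in the female HCC, a difference of -0.88 ± 0.19 over 3 pairs (adjusted p = 0.268). Its second probe set gave 2297 against 3564, 530.0 against 1105 and 852 against 4839 in the same order, lower in each lesion too. The third was lower in each as well, at 1289 against 2630, 399 against 584 and 656 against 2625. The fourth Papss2 probe set did not pass the filter. It was higher in each lesion, at low signals of 21.6 against 7.9, 114 against 26.4 and 32.2 against 5.

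Sult1e1 differed by pair. The female HCC was at 107 against 2022 beside it, a log2 difference of -4.04, while the male HCC (2232 against 2735) differed by -0.29 and the nodule (13452 against 15745) by -0.23. The fitted difference of -2.17 ± 0.69 in HCC (limma, adjusted p = 0.452) therefore rests on the female pair. Without the male pair, in a fit that takes its spread from the other groups and assumes that the lone pair varies like them, Sult1e1 was called (adjusted p = 0.0307), and without the female pair it was at -0.29.

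The fall of Sult1d1 was likewise large in the female HCC alone, at 2988 against 12151. In the male HCC Sult1d1 was higher, at 14105 against 11033, and in the nodule it was at 9968 against 12152. The second Sult1d1 probe set read 965 against 3503, 4730 against 3527 and 3121 against 4864, the same direction in each pair. Sult1b1, the third of the family genes next to each other on chromosome 5, was at 462 against 989 in the female HCC, 313 against 234 in the male HCC and 1236 against 1240 in the nodule. In the female HCC, 6 of the 8 genes were lower by over 1 log2 unit: these 3, by -4.04, -2.02 and -1.07, and Sult5a1, Sult2a8 and Papss2, by -1.22, -1.16 and -1.15. The share of all genes lower by as much in this pair was not counted, so this count has no background. It also rests on 1 array a side.

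Sult5a1 was at 240 against 848 in the nodule, 147 against 203 in the male HCC and 48.5 against 136 in the female HCC, lower in each (-1.13 ± 0.35 over 3 pairs, limma adjusted p = 0.379). Sult1a1 was at 29621 against 46454, 63529 against 69298 and 18762 against 32911 in the same order, with a difference of -0.53 ± 0.22 (adjusted p = 0.506). Sult1c2 was the exception, at 149 against 83.9 in the nodule and 174 against 45.8 in the female HCC, but 26.9 against 58.8 in the male HCC. In the nodule alone, 2 of the 8 genes were past 2-fold, Sult2a8 (-2.04) and Sult5a1 (-1.75), where 11.7% of all genes were, and 1 array a side allows no test.

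**Figure D3:**
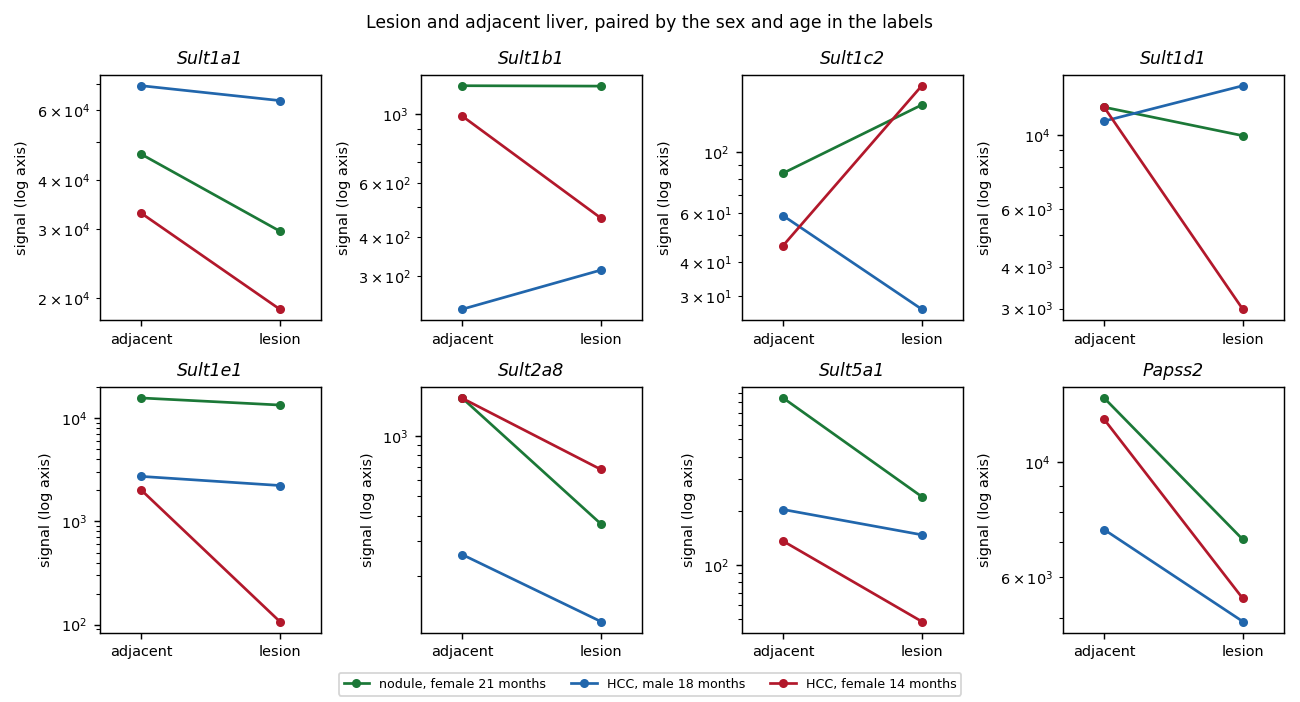
Signal (vertical axis, log scale) in adjacent liver and in the lesion, with a line per pair, for the 8 genes, paired by sex and age. The lines of Sult1a1, Sult1e1, Sult2a8, Sult5a1 and Papss2 all go down, and that of Sult1e1 is steep in the female HCC alone.

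Other genes of sulfation were set beside these values. Of 13 other cytosolic sulfotransferases, 6 were measured and 2 passed the filter, Sult2a2 and Sult3a1, which act on hydroxysteroids and amines. Both were called in the sex comparison, with signals of 19674 and 4911 for Sult2a2 in wild-type and knockout females against 59.2 and 40.3 in males. Sult3a1 was at 29102 and 20646 in females against 5.4 and 3.0 in males. Both genes passed the filter through the female arrays. In males, young and aged, Sult3a1 was at 3.0 to 9.1, and Sult2a2 was below 91 except in the male HCC (262). That both of the genes kept were higher in females was therefore in part set by the filter. In aged females Sult2a2 was 31417 in nodule-adjacent liver and 9801 in the nodule but 395 and 151 in the adjacent liver and HCC of the 14-month female, a split between the mice like that of Sult1e1. Neither was called in knockout against wild-type.

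Of 16 genes for sulfate and PAPS supply, 14 passed, with 1 called lower and 0 higher in knockout against wild-type and 0 called in the other 4 fits. The gene called was Csad, of taurine synthesis, at 7759 and 5022 in wild-type and 1101 and 1298 in knockout, females first (-2.37 ± 0.27, limma adjusted p = 0.0158). Slc26a1, a sulfate transporter, was at 2490 and 3096 in wild-type and 1299 and 728 in knockout (-1.50 ± 0.30, adjusted p = 0.0681). Papss1, the other PAPS synthase, was at 679 and 740 against 494 and 439 (-0.59, adjusted p = 0.241). In the lesions, Suox, which oxidises sulfite to sulfate, had the largest difference of the list, -1.07 ± 0.21 over 3 pairs (adjusted p = 0.211).

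Of 16 sulfatases and Golgi sulfation genes, 13 passed, and 1 was called higher and 0 lower in knockout against wild-type. It was Gal3st1, which makes sulfatide, at 117 and 84.3 in wild-type and 498 and 504 in knockout (2.16 ± 0.31, limma adjusted p = 0.0348). Of 18 factors named as regulators of sulfotransferase genes, 14 passed and 0 were called in any of the 5 fits. Nr1i3, the receptor CAR, was at 6864 and 4305 in wild-type and 2478 and 2606 in knockout (-1.09 ± 0.25, adjusted p = 0.0862), and Nfe2l2, the oxidative stress factor Nrf2, was higher by 1.05 ± 0.21 (adjusted p = 0.0640). Over all lesions 13 of the 14 had a negative difference, with a median of -0.29, beside -0.29 for the hepatocyte markers, and in HCC 11 of the 14, with a median of -0.20.

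**Figure D4:**
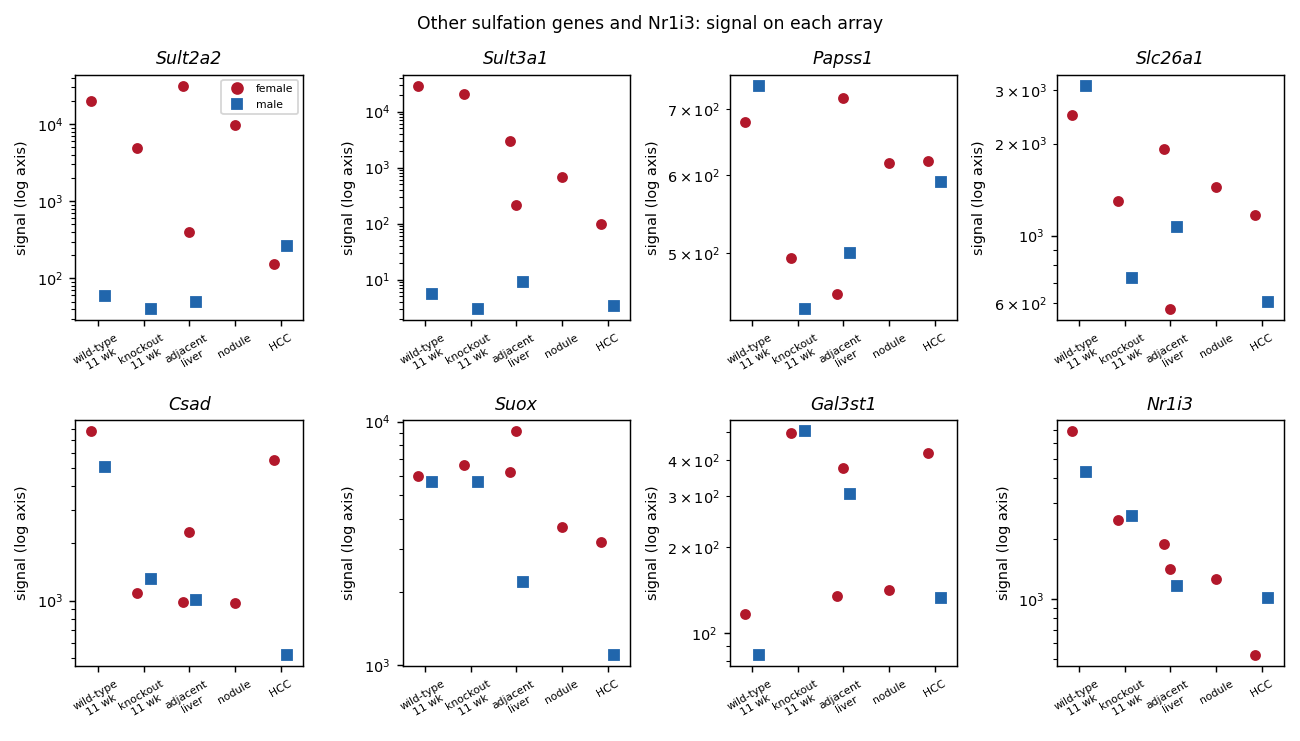
Signal (vertical axis, log scale) of 7 other sulfation genes and of the receptor Nr1i3 on the 10 arrays, by group, circles for females and squares for males, picked after their values were seen. Sult2a2 and Sult3a1 separate the sexes at 11 weeks, and both knockout pools lie below both wild-type pools for Csad, Slc26a1, Papss1 and Nr1i3, and above them for Gal3st1.

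Over the 10 arrays, the genes whose log2 values followed Sult1e1 most closely were Golga7 (Pearson r = 0.933), Sap30bp (0.912), Gnl3l (0.907), Arid4b (0.903) and Eif5b (0.900). The lowest were Cmah (-0.945), Plekhf1 (-0.920) and Cc2d2a (-0.908). Cmah, which makes a sialic acid, ran from 4008 in the wild-type male, where Sult1e1 was lowest, to 487 in the nodule. Among the 8 genes, Sult1a1 was nearest to Sult1e1 (0.684) and Sult2a8 farthest (-0.645), while Sult2a8 and Sult5a1 had 0.762. These are descriptions, since the arrays share their groups and age.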

How the data were processed

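Liver RNA of 10 samples was hybridised to Affymetrix arrays of 45101 probe sets. Each deposited value is a linear intensity of a probe set, computed by the authors with GCOS, per the submitters' processing notes, whose version is not given in the sources used here. Each array had a trimmed mean of 500. Precision is limited by the number of arrays.

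Gene names came from the platform annotation: 34945 probe sets had 1 gene, 932 several and 9211 none listed. Of those with 1 gene, 34741 were matched to the gene table, which then gave the name. Signals were taken to log2 after adding 16.8. Each gene was read from the probe set with the highest mean log2 value, and kept where that mean exceeded that of a signal of 91. Whether to take these means over log2 values or plain signals was settled after 3 versions had been fitted and their calls on the 8 genes seen. The version kept matches the earlier processing of these data. The others are given as alternatives chosen after seeing the data. The 8 genes and all lists were chosen with earlier results of these data known.

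Fits used limma 3.58.1 in R 4.3.3 with an intensity trend and were tested on simulated data. The simulated differences were larger than that of Sult1a1, and the simulated spread did not vary with intensity. The simulation therefore cannot show how safe the calls above are. Knockout against wild-type had sex as a term, females against males had genotype, the lesion fits had the mouse, and adjacent liver against young knockout had sex. They left 1 residual degree of freedom, or 2 for all lesions and for adjacent liver against young knockout, so calls rest largely on spread shared across genes. The pairing of lesion and adjacent liver comes from sex and age in the labels. Genes named beyond the 8 were Gnmt, up to 4 of each list per comparison (called ones first, then by size), and the 5 most and 3 least correlated with Sult1e1. Papss1, Stab2, Arntl, Dbp and the neutrophil markers S100a8, S100a9, Ngp and Csf3r were named after their values were seen. The alternatives tried were other constants, scalings, filters, probe set rules and models, and leaving out arrays or pairs.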

Additional observations from a re-analysis of the deposited data

Results flagged for a closer look

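In 9 cases, the log2 differences of a gene had opposite signs in the 2 sexes or genotypes. The difference between the signs was not tested in any of them, and each side is 1 array against 1. In knockout against wild-type, Papss2 was 0.96 in females and -0.53 in males, Sult1d1 -0.056 and 0.59, and Sult1b1 0.066 and -0.25. In females against males, Sult5a1 was 1.22 in the knockout and -0.83 in the wild-type, Papss2 1.33 and -0.16, and Sult1d1 -0.093 and 0.55.

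In HCC against adjacent liver, Sult1c2 was 1.61 in the female and -0.79 in the male, Sult1d1 -2.02 and 0.35, and Sult1b1 -1.07 and 0.40. The HCC mice differ in sex and in age, which cannot be told apart. No group held 4 or more arrays, so no array was tested as an outlier.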

How the results depend on the processing

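The limits are few arrays, 1 or 2 residual degrees of freedom and no detection calls. In knockout against wild-type, where 160 genes were called, 2 of them among the 8 sulfation genes, quantile normalization called 598 and 4, centring on the 75th percentile 315, no filter 1 of the 8, the mean of all probe sets 38 and 1, and the rule by plain signals 88 and 1. No intensity trend called 1 gene and 0 of the 8, all 10 arrays in one model 1 and 0, and no replicate block (sex term dropped) 2 and 0. Pools were left out only in the model over all 10 arrays, which lost the calls on the 8 with every pool kept. The part of a single pool in the calls can therefore not be read from those fits.

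For females against males (30 called), quantile normalization called 83 genes and 1 of the 8, the mean of all probe sets 19, no trend 1, and no replicate block 6. The model over all 10 arrays called 20, and 5 to 25 on leaving out a pool. For HCC (9 called), quantile normalization called 3, centring 4, no filter 16, no trend 0 and no replicate block 0, with 5 to 9 genes and 0 to 1 of the 8 on leaving out a pair. For all lesions (1 called), centring called 3, no filter 3, the mean of all probe sets 0 and no replicate block 0, with 2 to 177 genes and 0 to 1 of the 8 on leaving out a pair. For adjacent liver against young knockout (0 called), leaving out an array called 0 to 441 genes (110 without the nodule-adjacent liver) and 0 to 2 of the 8.

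Signs turned only for uncalled differences, and the causes were not tested. In knockout against wild-type, Sult1b1 was 0.065 with centring. On leaving out a pool, in the model over all 10 arrays, it ranged from -0.87 to 0.69 (0.48 without the knockout female). Sult1d1 ranged there from -0.33 to 0.87 and Sult2a8 from -1.95 to 0.044 (0.00019 without the knockout female). Papss2 ranged from -0.30 to 0.73 (-0.24 without the wild-type female). For females against males with all 10 arrays, Sult1a1 was -0.37, Sult1b1 0.58, Sult1d1 -0.37 and Sult2a8 1.17. Leaving out a pool in that model gave Sult1a1 -0.73 to -0.60, Sult1b1 0.84 to 0.94, Sult1d1 -0.64 to -0.45, Sult1e1 -0.10 to 0.02, Sult2a8 1.61 to 1.63 and Sult5a1 -0.36 to 0.26. For HCC, leaving out a pair gave Sult1b1 -1.07 to 0.40, Sult1c2 -0.79 to 1.61 and Sult1d1 -2.02 to 0.35, and for all lesions -0.54 to 0.20, -0.038 to 1.16 and -1.15 to 0.034. For adjacent liver, centring gave Sult1a1 -0.017, Sult1d1 -0.15 and Papss2 -0.057, and the mean of all probe sets gave Sult1d1 -0.27 and Papss2 -0.43. The mean for Papss2 takes in its probe set that did not pass the filter. Leaving out an array gave Sult1a1 -0.36 to 0.88, Sult1b1 -2.34 to 0.13, Sult1d1 -0.10 to 0.14 and Papss2 -0.11 to 0.45.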
